A study of Mus musculus with 4 samples.

Results

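Collagen genes were described in hair follicles that had been cut by laser from dorsal skin of Hos:HR-1 mutant mice. Every probe set whose annotation gave a single gene symbol of the form Col, number, a, number was taken, which gave 58 of 22690 probe sets and 36 of 12393 named genes. The genes fell into 9 fibrillar collagens, 8 collagens of basement membranes and their anchorage (types IV, VII and XVII) and 19 others. Mice of this strain lose their hair through a recessive mutation in Hr, the gene of a nuclear corepressor required for the hair cycle. The 2 control samples, called Het3 and Het4 here after the replicate numbers in their WT titles, were heterozygous, +/HrHos. The 2 mutant samples, called Hom2 and Hom3 after their HR titles, were homozygous, HrHos/HrHos. All 4 samples came from male N1 mice at postnatal day 14, according to the labels. The mice were offspring of a Hos:HR-1 male and a heterozygous F1 female from a cross with the outbred stock ICR, so both groups carried the mutant allele and a mixed background. Each sample pooled 50 to 70 follicles from sections of 8 micrometres. The labels do not say which animal gave which array, so the spread behind the p-values is that between arrays and may be technical.

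Labels of 2 samples were in doubt. Hom3 has the title of a mutant, but its strain field names the genotype of the controls. It stayed in the mutant group, and each class of collagens is also given with the sample moved to the other group (called the strain-field grouping). Its source name also carries the replicate number of Hom2, so the labels leave unsettled whether these arrays hold separate samples, and with it each n of 2 for the mutants. The arrays were not copies of each other: over all genes tested their median absolute log2 difference was 0.36, against 0.47 between Het3 and Het4. Het4 was labelled male, yet Xist, the transcript of the inactive X chromosome, read 6996 there and 68.8 to 85.6 in the other samples, and the Y-linked Eif2s3y read 11.2 there and 342.7 to 515.7 in the others. Each class is therefore also given without Het4. Hr itself did not check the genotype labels, because the labels do not place the mutation in the transcript. Its brighter probe set read 293.5 and 80.9 in Het3 and Het4 against 90.1 and 156.8 in Hom2 and Hom3. The dimmer one read 46.1 and 45.4 against 64.9 and 49.4, with both homozygous samples higher.

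Collagens are proteins in which 3 chains wind into a helix. Fibrillar collagens assemble into the cross-striated fibrils of the dermis and of the connective tissue sheath around the follicle. Type IV collagen forms the sheet-like network of basement membranes, type VII the anchoring fibrils below it, and type XVII a transmembrane link in the hemidesmosomes of basal keratinocytes. In skin the fibrillar chains come mainly from fibroblasts, while keratinocytes make types VII and XVII and share the making of type IV. In a bulk sample fewer cells of a type and less RNA per cell cannot be told apart.

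The sequences before the annotated starts of the fibrillar chains Col1a2, Col3a1 and Col5a1 and of Col17a1 are shown, because these genes represent the fibrillar and basement membrane classes among the members with the highest signals or the smallest p. They are 250 bases each, read 5′ to 3′ on the strand of the gene, from RefSeq on GRCm38.p6. Capitals mark matches, on either strand, to the TATA box (searched as the letters TATAAA), to the CCAAT box (searched as the letters CCAAT) and to the GC box (searched as the letters GGGCGG). No matches overlapped in these windows.
Col1a2 (chr6:4505368-4505617, plus strand): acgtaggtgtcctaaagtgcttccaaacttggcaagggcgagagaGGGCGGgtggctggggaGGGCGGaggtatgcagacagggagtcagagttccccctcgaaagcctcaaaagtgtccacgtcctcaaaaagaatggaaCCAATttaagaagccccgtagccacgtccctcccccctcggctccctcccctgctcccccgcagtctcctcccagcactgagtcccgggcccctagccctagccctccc
Col3a1 (chr1:45311288-45311537, plus strand): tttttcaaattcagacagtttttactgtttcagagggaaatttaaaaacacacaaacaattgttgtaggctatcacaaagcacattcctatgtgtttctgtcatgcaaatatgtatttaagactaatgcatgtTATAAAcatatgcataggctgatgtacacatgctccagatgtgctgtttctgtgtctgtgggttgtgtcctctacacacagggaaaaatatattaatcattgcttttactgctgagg
Col5a1 (chr2:27886175-27886424, plus strand): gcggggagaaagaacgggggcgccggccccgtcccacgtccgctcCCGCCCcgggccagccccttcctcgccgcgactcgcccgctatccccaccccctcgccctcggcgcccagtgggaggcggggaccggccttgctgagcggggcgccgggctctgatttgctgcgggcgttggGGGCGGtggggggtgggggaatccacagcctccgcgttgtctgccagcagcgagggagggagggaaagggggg
Col17a1 (chr19:47692043-47692292, minus strand): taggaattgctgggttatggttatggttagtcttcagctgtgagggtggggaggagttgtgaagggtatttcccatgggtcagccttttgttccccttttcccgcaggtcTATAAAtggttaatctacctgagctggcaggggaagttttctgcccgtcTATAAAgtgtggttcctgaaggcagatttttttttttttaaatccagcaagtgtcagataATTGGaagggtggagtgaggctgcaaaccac
The Col1a2 window held 1 CCAAT box and 2 GC boxes, the Col3a1 window 1 TATA box, the Col5a1 window 2 GC boxes (1 on the opposite strand), and the Col17a1 window 2 TATA boxes and, on the opposite strand, 1 CCAAT box. Of the 36 collagen genes 27 had a window in the table. A GC box was present in 14 of these 27 (51.9%) and in 32.7% of the windows of 27025 genes. A CCAAT box was present in 10 (37.0%, against 34.2% of all) and a TATA box in 5 (18.5%, against 12.9%). These matches describe letters and not binding sites.

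A kept probe set was present for 26 of the 36 genes. A probe set was kept when its mean over the 4 samples lay among the highest 60% of all probe sets, a rule that does not look at the groups, and 37 of the 58 collagen probe sets were kept. Each gene was represented by its probe set with the highest mean. Without a kept probe set were Col2a1, Col10a1, Col9a2 and Col9a3, whose products are known from cartilage, Col4a3 and Col4a4, which are chains of specialised basement membranes, and Col8a1, Col19a1, Col22a1 and Col26a1. The 21 probe sets left out read between 0.6 and 52.9, beside array medians of 43.5 to 52.6. In single samples kept collagen probe sets also read as low as 2.3, because the rule takes the mean. Closest to the limit were 2 probe sets of Col11a1, one just inside (53.5, 54.0, 10.1 and 21.8 in Het3, Het4, Hom2 and Hom3) and one just outside (29.7, 22.6, 22.9 and 43.4).

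**Figure D1:**
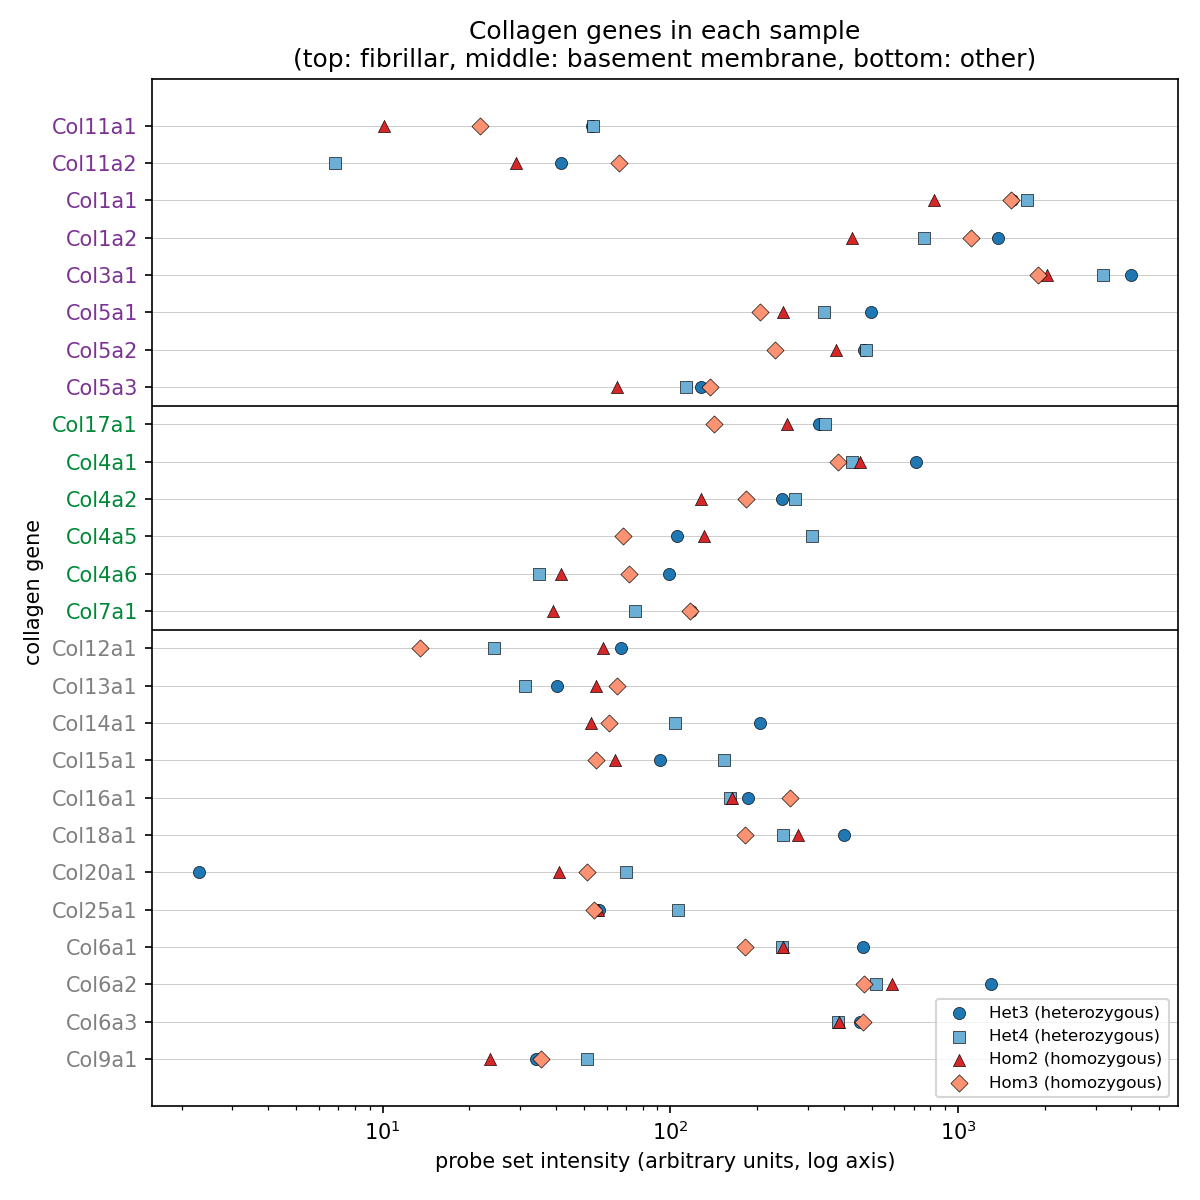
Intensity (log axis, arbitrary units) of the 26 collagen genes kept, 1 symbol per sample, in 3 blocks for fibrillar, basement membrane and other collagens. For 10 genes Hom2 and Hom3 (triangles and diamonds) lie to the left of Het3 and Het4 (circles and squares), and for 1 gene, Col13a1, to the right. Distances between rows compare different probe sets and have no meaning.

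No collagen passed the test over all probe sets. limma called 0 of the 37 kept collagen probe sets at a Benjamini-Hochberg adjusted p under 0.05, and 0 of all 13576 (0.0%), with an adjusted p of 1.00 for each member. At an unadjusted limma p under 0.05 there were 2 of 37, both lower in homozygous follicles, against 1.03% of all probe sets lower and 1.27% higher. The values that follow are therefore measured differences and not called changes. Differences are homozygous minus heterozygous on the scale log2(intensity + 32), which understates those of dim probe sets. The median 95% interval over all probe sets reached 0.93 to either side before any adjustment for the number of tests, so a call over all probe sets would mostly need a larger difference.

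Most collagens read lower in the homozygous samples. Of the 26 genes 21 lay below 0, where 48.7% of all 8557 genes tested did, and the median difference was -0.48 (SD over genes 0.42) against 0.01 over all genes. Over all 36 collagens, with no filter, 27 lay below 0, against 48.9% of all genes, and the median was -0.31. In 10 of the 26 genes the groups were apart with Hom2 and Hom3 lower, against 13.4% of all genes tested, and in 1 with Hom2 and Hom3 higher, against 13.8%. The collagens share their samples and mostly their cells of origin, so these counts describe 4 samples and are not 26 independent observations. The count below 0 was 22 of 26 without Het4, 22 without Hom3, and 21 under the strain-field grouping. Without Hom3 and under the strain-field grouping alike, Hom2 was the only mutant sample. The count was 17 of 26 without Hom2 and 19 without Het3.

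**Figure D2:**
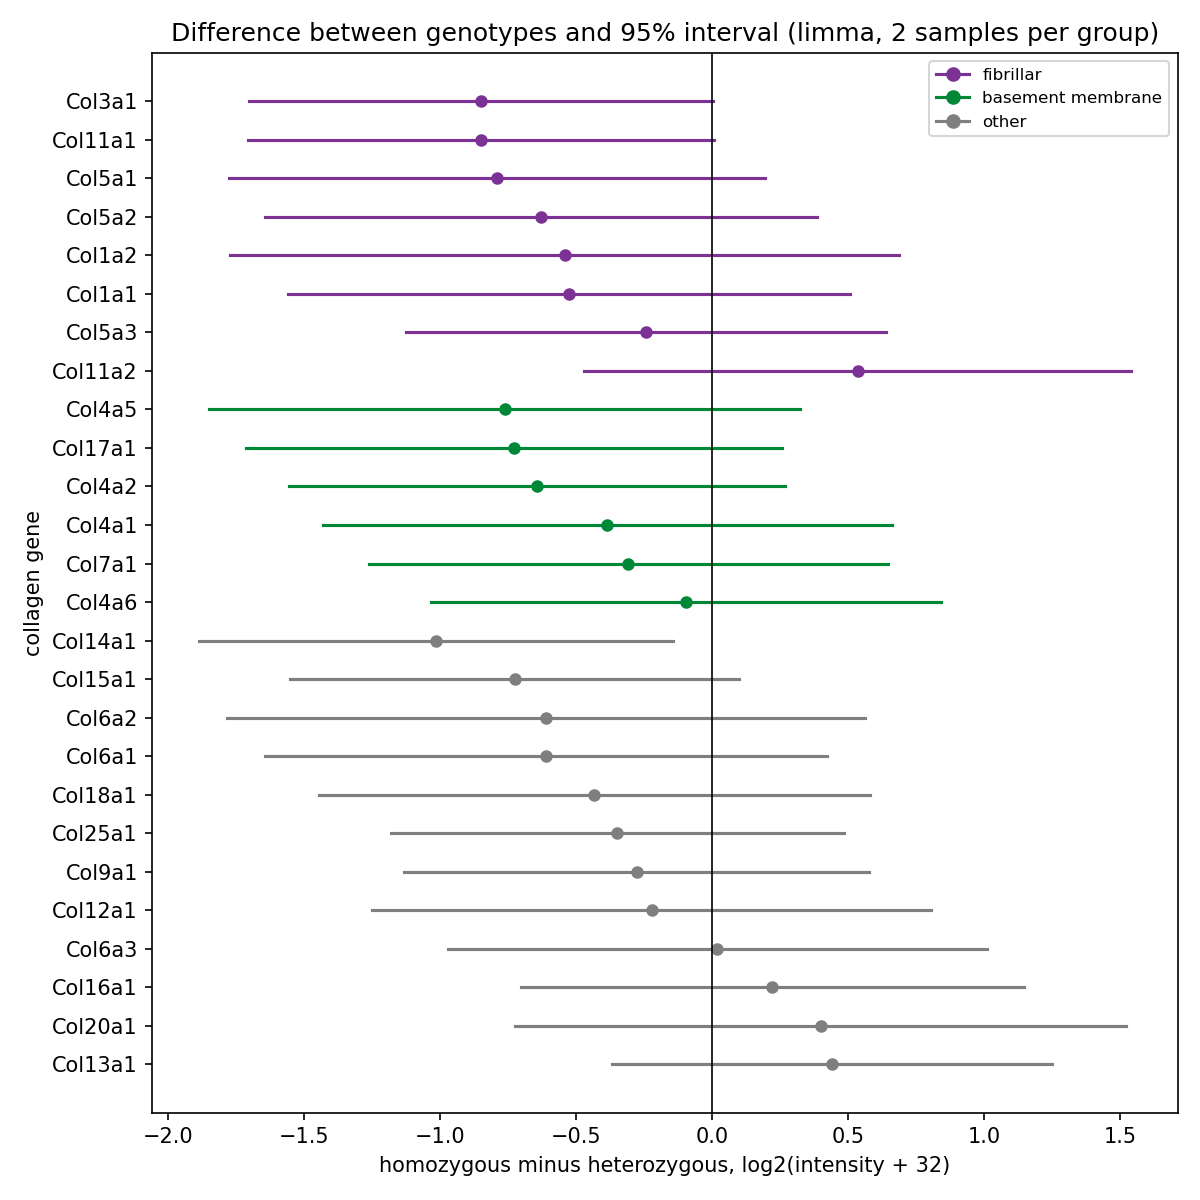
Log2 difference (homozygous minus heterozygous) of the 26 collagen genes kept, with its unadjusted limma 95% interval, n = 2 per group. All 6 basement membrane collagens, 7 of 8 fibrillar and 8 of 12 others lie left of 0, and the interval of 1 gene, Col14a1, does not reach 0.

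Among the fibrillar collagens 7 of 8 lay below 0, with a median difference of -0.58 (SD over genes 0.46). Col3a1, which encodes the chain of type III collagen that is abundant in young dermis, read 3981 and 3195 in Het3 and Het4 against 2042 and 1891 in Hom2 and Hom3. The groups did not overlap, and the log2 difference was -0.85 ± 0.39 (SE, n = 2 per group; limma adjusted p = 1.00). Another Col3a1 probe set had the same sign, -0.95 ± 0.53, but its samples overlapped, at 297.6 and 583.8 against 312.0 and 125.8.

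The chains of type I collagen, the main fibril protein of skin, separated the samples less. Col1a1 read 1538 and 1727 in Het3 and Het4 against 821.2 and 1529 in Hom2 and Hom3 (-0.53 ± 0.47). The groups did not overlap by a narrow margin, because Hom3 lay just under Het3. Col1a2 read 1370 and 761.1 against 428.6 and 1108 (-0.54 ± 0.56), so Hom3 lay between the heterozygous samples. Its other kept probe set gave a similar difference, -0.47 ± 0.63, from a different order of samples: 249.2 and 1034 against 477.3 and 273.9. For both type I chains the lowest of the 4 values on the brighter probe set was that of Hom2.

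Type V collagen, which starts fibrils and limits their width, had its lower values in the homozygous samples for the chains Col5a1 and Col5a2. Col5a1 read 498.8 and 340.8 in Het3 and Het4 against 246.8 and 205.0 in Hom2 and Hom3 (-0.79 ± 0.45), without overlap. Its other kept probe set gave a smaller difference of -0.25 ± 0.41. Col5a2 read 469.6 and 476.5 against 375.8 and 230.2 (-0.63 ± 0.46), also without overlap, and -0.45 ± 0.45 on another probe set whose samples overlapped. Col11a1, a minor fibrillar chain related to type V, was dim at 53.5 and 54.0 against 10.1 and 21.8 (-0.85 ± 0.39), and both homozygous values lay under the pseudocount of 32. A further Col11a1 probe set that was not kept had a difference of 0.15. The remaining fibrillar chains kept, Col5a3 and Col11a2, overlapped between the groups at -0.24 and 0.54.

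The fibrillar median was -0.73 without Het4 and -0.59 under the strain-field grouping. Single genes moved more under that grouping, to -0.49 for Col3a1, -0.37 for Col5a1 and 0.0067 for Col5a2. Without Hom2 it was -0.38, with 5 of 8 genes below 0. Set against the mean of the 4 samples, the median of the 8 genes was 0.36 and 0.20 in Het3 and Het4 and -0.45 and -0.04 in Hom2 and Hom3. Hom2 thus lay furthest below the mean.

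All 6 basement membrane collagens kept lay below 0, with a median difference of -0.51 (SD over genes 0.27). That difference corresponds to 1.43-fold higher values in heterozygous samples on the intensities with 32 added. Col17a1, the transmembrane collagen of hemidesmosomes that anchors basal keratinocytes and follicle stem cells, read 329.3 and 345.4 in Het3 and Het4 against 253.1 and 142.1 in Hom2 and Hom3. The groups did not overlap, and the log2 difference was -0.73 ± 0.45 (SE, n = 2 per group; limma adjusted p = 1.00). Col4a2, a chain of the ubiquitous form of type IV collagen, read 244.1 and 270.4 against 127.4 and 182.4 (-0.64 ± 0.41), likewise without overlap.

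Col4a1, the partner chain of Col4a2 in the same protein, read 714.1 and 426.9 against 454.2 and 381.3 (-0.38 ± 0.47). Het3 stood above the other 3 samples, which lay close together. Another Col4a1 probe set read 215.2 and 163.9 against 9.8 and 444.8 (-0.64 ± 0.85), and there the homozygous samples were the lowest and the highest of the 4. For Col4a5, a chain of the Alport-type network encoded on the X chromosome, the probe sets disagreed in sign. The brighter one read 105.3 and 309.7 against 130.5 and 68.4 (-0.76 ± 0.49), where Het4 alone was high. The other read 65.6 and 57.1 against 95.3 and 60.7 (0.22 ± 0.36). Col4a6 and Col7a1, the chain of the anchoring fibrils, overlapped between the groups at -0.10 and -0.31.

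The basement membrane median was -0.58 without Het4 and -0.25 under the strain-field grouping. Of the 6 genes 4 lay below 0 without Hom2 and 5 without Het3. For Col17a1 the difference was -0.012 under the strain-field grouping and -0.37 without Hom3, whereas for Col4a2 it was -0.71 and -0.86. Over all 8 genes of the class with no filter the median was -0.35. Set against the mean of the 4 samples, the median was 0.36 and 0.15 in Het3 and Het4 against -0.18 and -0.21 in Hom2 and Hom3. The medians of Hom2 and Hom3 lay close together, but their single genes did not. The median absolute log2 difference between Hom2 and Hom3 was 0.59 here and 0.66 in the fibrillar class. Whether the classes differ was not tested.

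Other collagens were more mixed, with 8 of 12 genes below 0 and a median difference of -0.31 (SD over genes 0.46). Col14a1, which encodes a fibril-associated collagen that decorates the surface of fibrils, had the smallest unadjusted limma p of the collagens named by their brightest probe set. It read 205.3 and 103.7 in Het3 and Het4 against 53.0 and 60.9 in Hom2 and Hom3. The difference was -1.01 ± 0.39 (limma adjusted p = 1.00), or 2.02-fold higher in the controls on the intensities with 32 added. The groups did not overlap on this probe set or on the other, which read 138.1 and 84.2 against 64.6 and 67.5 (-0.52 ± 0.37).

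Col15a1 and Col18a1 encode the multiplexins, collagens that sit at basement membranes. Col15a1 read 92.1 and 152.9 against 64.4 and 55.0 (-0.73 ± 0.37), without overlap. Col18a1, whose C-terminal fragment is endostatin, read 400.9 and 246.3 against 278.3 and 181.1 on the brighter probe set (-0.43 ± 0.46). On the other it read 465.7 and 209.7 against 222.8 and 45.1 (-1.31 ± 0.59), where Hom3 alone was low. The groups overlapped on both.

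Type VI collagen forms beaded microfilaments. The measured differences varied between its chains, which were not tested against each other. Col6a1 read 466.9 and 244.8 against 246.7 and 180.9 (-0.61 ± 0.47), and Col6a2 read 1299 and 517.5 against 590.2 and 472.1 (-0.61 ± 0.53). In both genes Het3 was the highest sample, and Het4 lay between the homozygous samples. Without Het3 the difference was -0.18 for Col6a1 and 0.03 for Col6a2. Col6a2 had a further probe set with no overlap, at 469.2 and 301.0 against 242.0 and 265.1 (-0.52 ± 0.45). Col6a3, the third chain, read 454.0 and 383.1 against 383.8 and 466.6 (0.02 ± 0.45), with the samples of both groups in the same range.

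The transmembrane collagens gave values in both directions. Col13a1, a collagen of cell contacts, read 40.3 and 31.2 against 54.9 and 65.0 (0.44 ± 0.37). Among the genes kept it was the 1 collagen with both homozygous samples above both heterozygous samples. Col25a1, best known from neurons, read 56.6 and 106.5 against 55.8 and 54.2 (-0.35 ± 0.38), where the non-overlap rests on a margin of less than 1 unit. Col9a1 had kept probe sets of opposite sign. The brighter one read 34.2 and 51.1 against 23.5 and 35.5 (-0.28 ± 0.39). The other read 63.9 and 5.8 against 55.4 and 28.7 (0.27 ± 0.49). The remaining genes of the class, Col12a1, Col16a1 and Col20a1, overlapped between the groups and lay between -0.22 and 0.40. The median of the class was -0.28 without Het4 and -0.18 under the strain-field grouping. Without Het3 it was -0.15, and without Hom2 -0.53.

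Several collagen genes lie next to each other in the genome, and the array allows the chains of such pairs to be set side by side. In the RefSeq table of GRCm38.p6, 6 pairs of collagen genes had no other protein-coding gene start between them: Col3a1 and Col5a2, Col4a1 and Col4a2, Col4a3 and Col4a4, Col4a5 and Col4a6, Col6a1 and Col6a2, and Col9a1 and Col19a1. The promoter windows of Col4a1 and Col4a2 overlapped, as these genes start on opposite strands beside each other. Both genes of the pair Col3a1 and Col5a2 read lower without overlap (-0.85 and -0.63). In the pair Col4a1 and Col4a2 (-0.38 and -0.64) Col4a2 did so but not Col4a1. Col6a1 and Col6a2 had the same difference, -0.61, and the same order of the heterozygous samples. In the other 3 pairs at least 1 gene was not kept or had probe sets of different sign.

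Of 11 collagen genes with several kept probe sets 9 had the same sign on each, and Col4a5 and Col9a1 did not. Probe sets of a gene can read different transcript ends, and some members had a dim one beside a bright one. Col1a1 read 1538 to 1727 in the heterozygous samples on one and 4.6 to 16.6 on the other, which was not kept. With the mean over the kept probe sets of each gene the class medians were -0.52 for fibrillar, -0.41 for basement membrane and -0.28 for other collagens.

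Genes that act on collagen did not all share this direction. Of 13 measured enzymes and chaperones of collagen folding and modification 8 were kept, of which 2 lay below 0, with a median difference of 0.07. Colgalt1, which adds galactose to hydroxylysine, read 270.5 and 108.7 against 191.8 and 272.3 (0.34 ± 0.48), and the lysyl hydroxylase gene Plod3 read 110.1 and 55.5 against 63.1 and 150.8 (0.24 ± 0.43). In 0 of the 8 genes did the groups separate, against 13.4% of all genes tested with Hom2 and Hom3 lower and 13.8% higher. The direction of the median was not stable: it was -0.22 under the strain-field grouping, -0.11 without Het4, -0.11 without Hom3 and 0.31 without Het3.

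Of the genes for procollagen processing and cross-linking 4 of 8 kept lay below 0, with a median of -0.05. Bmp1, a protease that removes the C-propeptide of procollagen, read 101.1 and 88.8 against 11.3 and 81.0 (-0.86 ± 0.46), without overlap, and its low mean came from Hom2. Pcolce, the enhancer of that protease, read 1071 and 327.0 against 354.8 and 205.0 (-1.06 ± 0.58), with overlap. The lysyl oxidase gene Lox read 61.7 and 188.0 against 163.8 and 179.3 (0.50 ± 0.46), and Pcolce2 43.4 and 28.3 against 52.6 and 46.1 (0.27 ± 0.37), the latter without overlap.

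Proteoglycans and glycoproteins that bind fibrils had 10 of 12 kept genes below 0, against 48.7% of all genes tested. Their median difference was -0.50. Dpt, the gene of the fibril-binding protein dermatopontin, read 440.2 and 755.0 in Het3 and Het4 against 148.9 and 148.2 in Hom2 and Hom3 (-1.76 ± 0.46). Bgn, the small proteoglycan biglycan, read 942.5 and 885.5 against 356.4 and 675.7 (-0.85 ± 0.49). Prelp, which binds collagen to basement membranes, read 70 and 78.3 against 47.3 and 14.9 (-0.80 ± 0.40), and Tnxb, a tenascin of the skin whose loss in humans gives lax tissue, read 71.4 and 65.4 against 30.7 and 47.4 (-0.51 ± 0.36). In these 4 of the 12 genes the groups did not overlap, with Hom2 and Hom3 lower, against 13.4% of all genes tested. Without Hom3 the median was -0.21, and under the strain-field grouping -0.14.

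Basement membrane partners of collagen had 11 of 13 kept genes below 0, against 48.7% of all genes tested, with a smaller median of -0.22. Lama4, a laminin chain of vessels and mesenchyme, was dim at 50 and 61.1 against 11.4 and 21.2 (-0.86 ± 0.39), without overlap. Both of its homozygous values lay under the pseudocount of 32. Dst, a hemidesmosomal plakin, read 1520 and 1608 against 1492 and 898.4 (-0.42 ± 0.45). Its groups did not overlap by a narrow margin, because Hom2 lay just under Het3. Hspg2, the basement membrane proteoglycan perlecan, read 192.8 and 205.5 against 231.0 and 362.5 (0.48 ± 0.43), with both homozygous samples higher. Without Hom2 the median was 0.02. The 7 kept genes of collagen breakdown had a median of -0.12 (5 below 0), and the 4 kept collagen receptors 0.09 (1 below 0). limma called 0 genes in each of these 6 lists at an adjusted p under 0.05.

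**Figure D3:**
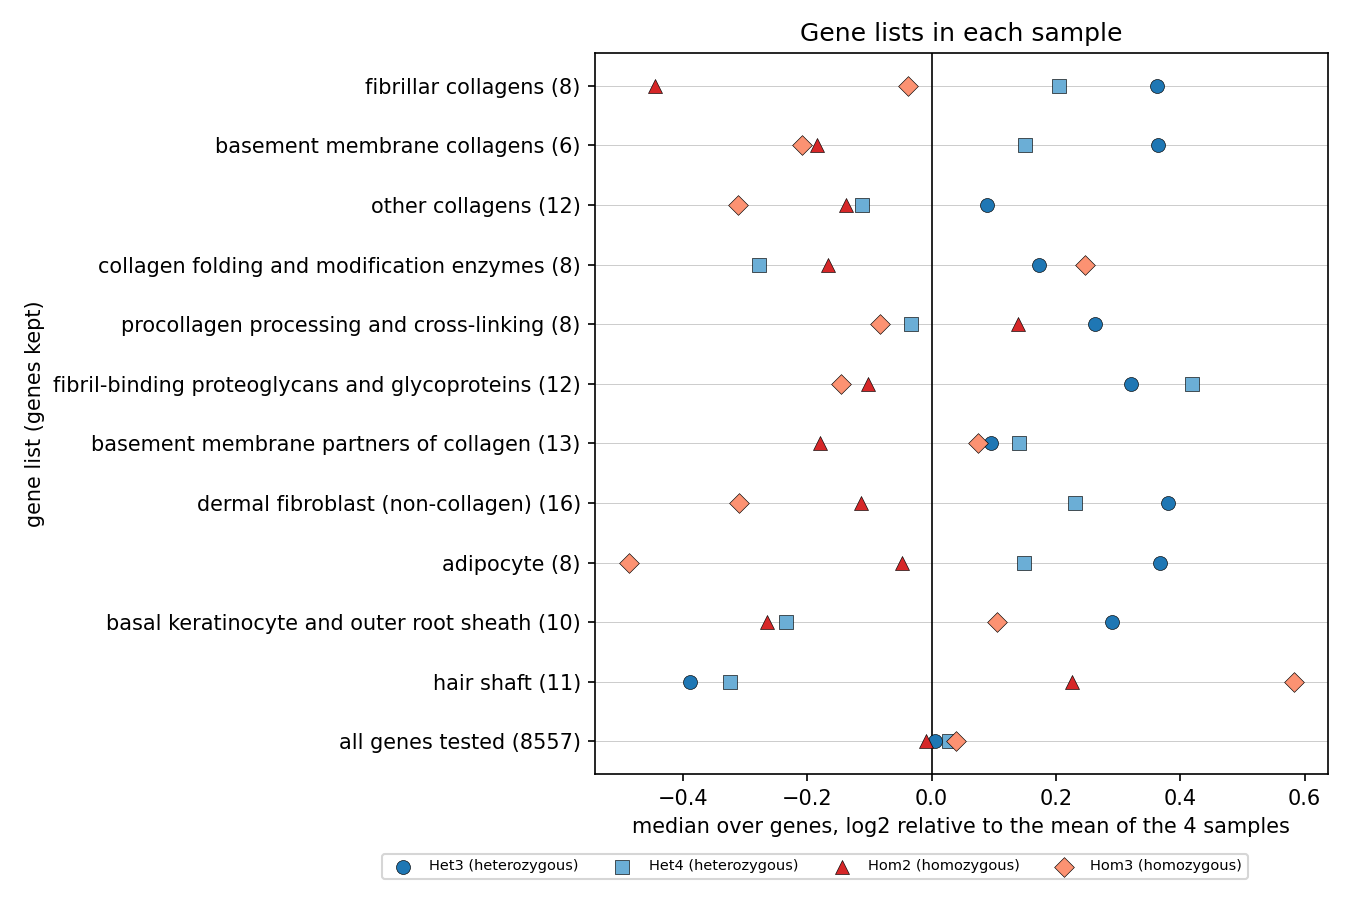
Median over the kept genes of each list (number of genes in brackets), as log2 relative to the mean of the 4 samples, 1 symbol per sample. All 3 collagen classes, fibril-binding proteins, basement membrane partners, dermal fibroblast markers and adipocyte markers have Het3 and Het4 to the right of Hom2 and Hom3, though other collagens and basement membrane partners by a narrow margin, and hair shaft genes show the reverse. Enzymes of collagen folding, procollagen processing and basal keratinocyte markers do not part the groups.

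Marker lists of other cell types differed in direction, and limma called 0 genes in each at an adjusted p under 0.05. Dermal fibroblast and adipocyte markers lay mostly on the side of the collagens, as did the few kept markers of skeletal muscle, cartilage and Schwann cells. Dpt, Dcn and Lum belong to both the fibroblast list and that of fibril-binding proteins. Of 19 non-collagen markers of dermal fibroblasts 18 were on the array and 16 were kept. Of these 12 lay below 0, against 48.7% of all genes tested, with a median difference of -0.40. In 6 of the 16 Hom2 and Hom3 lay below both controls, against 13.4% of all genes tested. Their summed intensity was 5556 to 7586 in the heterozygous and 2909 to 4128 in the homozygous samples, and 1 of the 18 read under 32 in every sample. The summed intensity of the 36 collagens was 10357 to 13118 in the heterozygous and 7171 to 8183 in the homozygous samples. The 11 hair shaft markers kept went the other way, with 10 above 0, a median of 0.54 and summed intensities of 10457 to 11384 against 15732 to 19054. In 7 of them Hom2 and Hom3 lay above both controls, against 13.8% of all genes tested. Adipocyte markers had 8 of 8 kept genes below 0 (median -0.42; summed intensity 12451 to 13670 against 6048 to 10393). Basal keratinocyte and outer root sheath markers, cells that make types VII and XVII, had a median of -0.06, with 6 of 10 kept genes below 0. Their summed intensities were 9918 to 11173 against 9015 to 9556. Set against the mean of the 4 samples, their median was 0.29 and -0.23 in Het3 and Het4. It was -0.26 and 0.11 in Hom2 and Hom3, which does not part the groups. All summed intensities given here weigh the brightest probe sets of a list most. All 18 probe sets of the hybridization spike-ins also read lower in Hom2 and Hom3 than in either control, at a mean difference of -1.05. The part of these in the collagen values was not tested.

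Medians of the remaining marker lists were 0.15 for dermal papilla, -0.00 for endothelium, -0.13 for smooth muscle and pericytes, -0.24 for skeletal muscle, -0.31 for cartilage, -0.34 for Schwann cells and nerve, 0.04 for leukocytes and 0.58 for melanocytes, where 9 of 9 kept genes lay above 0. Of the 8 cartilage markers 3 were kept, and Col2a1, the defining fibrillar collagen of cartilage, read between 10.2 and 26.0.

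**Figure D4:**
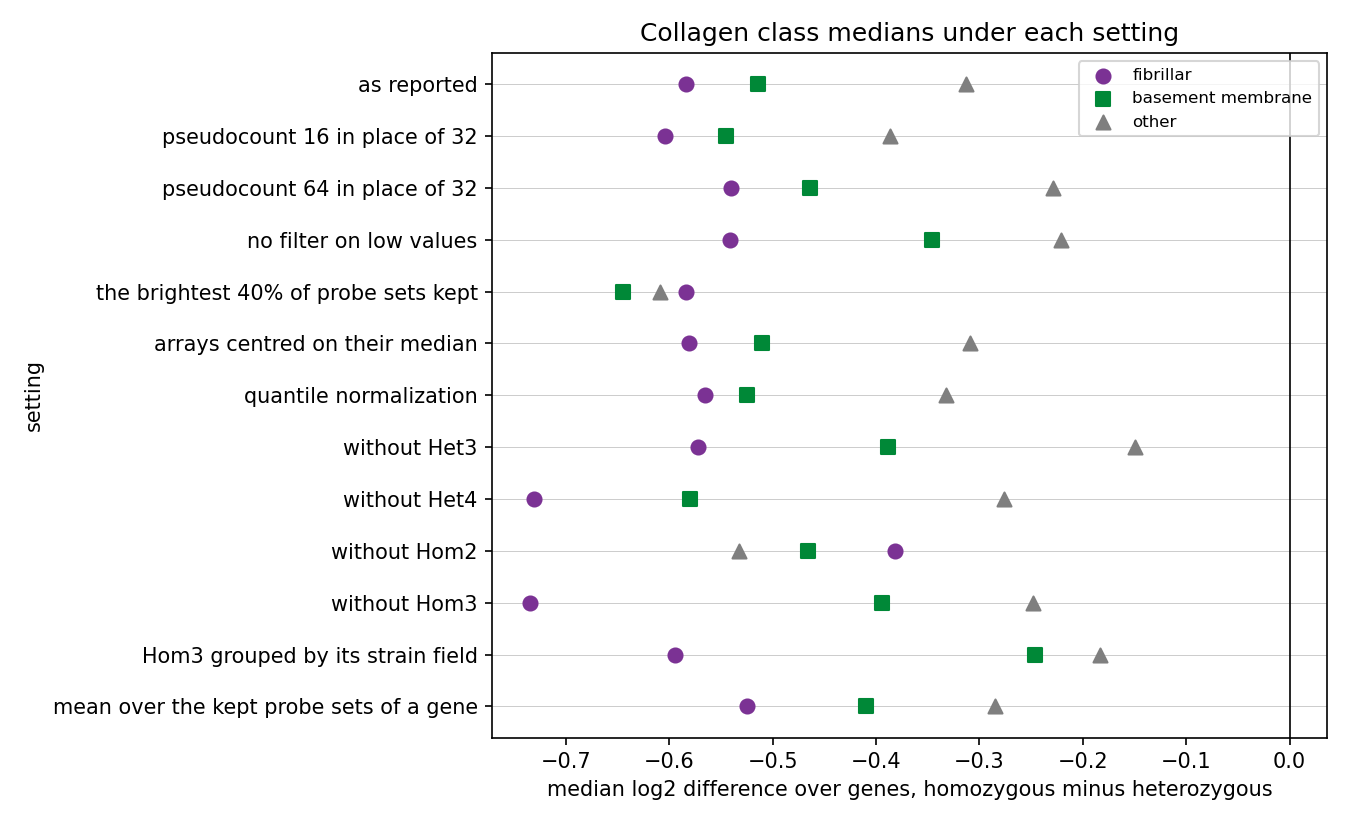
Median log2 difference over genes (homozygous minus heterozygous) of the 3 collagen classes as reported and under 12 other settings, 1 row per setting. Each of the medians lies below 0, and the order of the classes changes between settings. The medians rest on the same 4 samples throughout.

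The samples within a genotype also differed from each other. Over the fibrillar collagens the median absolute log2 difference was 0.24 between the heterozygous samples and 0.66 between the homozygous samples, and over the other collagens 0.64 and 0.27. For basement membrane collagens it was 0.59 in each pair, and over all genes tested 0.47 and 0.36. In each of the 3 classes the spread within at least 1 group was larger than the median difference between the groups, and in the basement membrane class this held for both groups.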

How the data were processed

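Follicle RNA of 4 samples was amplified and hybridized to 1-colour Affymetrix arrays, per the labels' protocols. The deposited table holds intensities on a linear scale. From the values, the authors had brought the arrays to 1 level (mean without the lowest and highest 2%: 164.5 to 164.7). The software behind these values is not given in the sources used here. Array medians were 43.5 to 52.6, and the number of arrays limits the precision.

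Values were transformed to log2(intensity + 32). Without the 64 controls, the brightest 60% of probe sets by mean were kept (13576 of 22626). Symbols came from the platform annotation (20380 probe sets with 1 symbol, 691 with several and 1555 with none). All kept probe sets were fitted with limma 3.58.1 in R 4.3.3 (lmFit, eBayes with intensity trend, two-sided, Benjamini-Hochberg over all), checked on simulated data. ± is limma's SE. A fit without 1 sample leaves an arm with 1 sample, assumed to vary like the rest. The strain-field grouping does the same, with Hom2 as the only mutant sample. Groups followed the title prefix.

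The members, gene lists and tests were chosen with earlier results of these data known. Full values were given for the 10 collagens with the smallest p, those without overlap, the 3 with the highest signal in each class and those whose probe sets disagree, and for up to 4 genes per other list. Xist, Eif2s3y, the second Col18a1 probe set and Col2a1 were named after their values were seen. Alternatives covered the pseudocount, the filter, median centring, quantile normalization, each sample left out, the strain field, the mean over probe sets, and eBayes settings.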

Additional observations from a re-analysis of the deposited data

How the results depend on the processing

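Under all 13 alternative fits limma called 0 collagen probe sets, and 0 of all probe sets except without Het3 (range 0 to 51 over the 4 samples left out). The 3 collagen class medians stayed below 0 in each of the 12 settings run. Those of basement membrane collagens were -0.35 with no filter, -0.64 in the brightest 40% and -0.25 under the strain-field grouping, and that of other collagens was -0.61 in the brightest 40%. Fibril-binding proteins had -0.61 with a pseudocount of 16, -0.37 with 64, -0.36 with the mean over probe sets and -0.14 under the strain-field grouping. Procollagen processing had 0.19 under that grouping. With a sample left out, medians ranged from -0.58 to -0.39 (basement membrane collagens), -0.53 to -0.15 (other collagens), -0.11 to 0.31 (folding enzymes), -0.36 to 0.16 (procollagen processing), -0.67 to -0.21 (fibril-binding proteins) and -0.23 to 0.022 (basement membrane partners). The cause was not tested.

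All 29 kept probe sets of the collagens given with values held their direction under other pseudocounts, no filter and median centring. They did so too under quantile normalization and other eBayes settings, as did the 24 left among the brightest 40%. Under the strain-field grouping 7 changed direction: Col3a1 (0.12, dimmer probe set), Col5a2 (0.0067 and 0.39), Col1a2 (0.18, dimmer probe set), Col6a3 (-0.16) and Col18a1 (0.073 and 0.28). So did Colgalt1 (-0.069), Plod3 (-0.47), Dst (0.19) and Hspg2 (-0.070). With a sample left out, the sign turned within the ranges of Col4a1 (-2.40 to 1.12, dimmer), Col4a5 (-0.0086 to 0.45, dimmer), Col5a2 (-0.97 to 0.067, dimmer), Col1a2 (-1.43 to 0.49, dimmer, and -1.19 to 0.11, brighter), Col6a2 (-1.25 to 0.027, brighter), Col6a3 (-0.11 to 0.15), Col9a1 (-0.40 to 0.95, dimmer), Lox (-0.11 to 1.12), Colgalt1 (-0.21 to 0.89) and Plod3 (-0.23 to 0.71). No paired analysis was possible because the groups share 1 replicate number, 3, and the labels do not say that it links samples.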
